A study of Mus musculus with 12 samples.

Results

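The genes described are the ligands and receptors of the tumour necrosis factor (TNF) superfamily, measured in mouse liver after an adenovirus delivered a short hairpin RNA against Grb14. They were chosen by a rule on names, set with earlier results of these data known. It took every gene symbol that begins with Tnfsf or Tnfrsf and a digit, and Tnf, Lta, Ltb, Ltbr, Fas, Fasl, Cd40, Cd40lg, Cd27 and Cd70. The rule gave 39 of the 19938 genes on the array that have a symbol of their own, 15 ligands and 24 receptors, each with 1 probe set. All 39 were tested, with no filter on signal. Tnfsf12 and Tnfsf13, 2 further ligands, share a probe set and have no value of their own here.

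The samples were livers of 12 C57Bl/6J mice, an inbred strain, which received adenovirus by vein at 10 weeks of age and were studied fed, on day 7. In the sh Grb14 group 6 mice received adenovirus with a hairpin against Grb14, an adapter protein that binds the insulin receptor and inhibits it. In the sh scramble group 6 mice received adenovirus with a scrambled hairpin, so both groups carry virus and a hairpin. Each liver gave 1 Affymetrix whole-transcript array. Livers without virus and a further hairpin against Grb14 were not analysed here, and the sex of the mice is not given in the sources used here.

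TNF superfamily ligands are mostly membrane proteins that act as trimers, on the cell that makes them or after proteases release them. Their receptors gather adaptor proteins at the membrane. Receptors with a death domain can start caspase-driven cell death, those that bind TRAF proteins switch on NF-kB and kinase cascades, and decoy receptors bind a ligand without passing on its signal. In liver, TNF, Fas ligand and TRAIL are known for acting on hepatocytes during inflammation, whereas ligands such as CD70 and CD40 ligand serve contacts between lymphocytes and antigen-presenting cells.

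Values are log2 expression levels from robust multi-array averaging (RMA), so a difference of 1 is a 2-fold change. A gene passed the test when its limma p, adjusted by Benjamini-Hochberg over all 19938 genes, was under 0.05. Grb14 itself was lower in all 6 sh Grb14 livers: its lowest, median and highest levels were 8.02, 8.23 and 8.44 in sh Grb14 livers, against 10.08, 10.14 and 10.25 in sh scramble livers, a change of −1.91 (SE 0.059) with 26.7% of the level in sh scramble livers remaining (limma adjusted p = 7.99e-14). Of 8 hepatocyte markers, 7 fell (87.5%, against 39.5% of all genes), with a median change of −0.26, against −0.10 over all genes. All 8 lay above the signal of olfactory receptor genes used as a low-signal reference in both groups. Nothing in the labels says that the mice of a group came from separate litters or days. The p-values set each change against the spread between mice within a group, which limma adjusts with that of all genes. A difference shared by a whole group, such as a litter or day, is not in that spread. In bulk liver, fewer cells of a type and less RNA per cell cannot be told apart.

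The receptors of the family were mostly higher in sh Grb14 livers, and the ligands were divided. Of the 39 genes, 24 rose (61.5%), against 25.8% of all genes tested, and 6 fell (15.4%), against 39.5% of all genes. The median change was 0.31 over the family and −0.10 over all genes, and with each array centred on its median 19 family genes rose and 11 fell. Some calls were not stable: of the genes that fell, Cd70 lost the call under 10 of 18 alternatives, and Lta and Tnfrsf8 under 7 and 9 of 19, and of those that rose, Tnfrsf13b, Tnfrsf22 and Tnfsf15 lost it under 9 of 19 each. A change of at least 2-fold was reached by 7 genes, all higher (17.9%, against 6.37% of all genes), and by 0 genes in the lower direction (against 2.65% of all genes). The groups did not overlap in 20 family genes, all of them higher (51.3%, against 41.2% of all genes in either direction). Of the 24 receptors, 18 rose and 3 fell, with a median change of 0.66. Of the 15 ligands, 6 rose and 3 fell, with a median of 0.07. However, 7 of the ligands and 3 of the receptors lay under the low-signal reference in both groups. Weak signal therefore enters the 2 medians unequally.

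**Figure D1:**
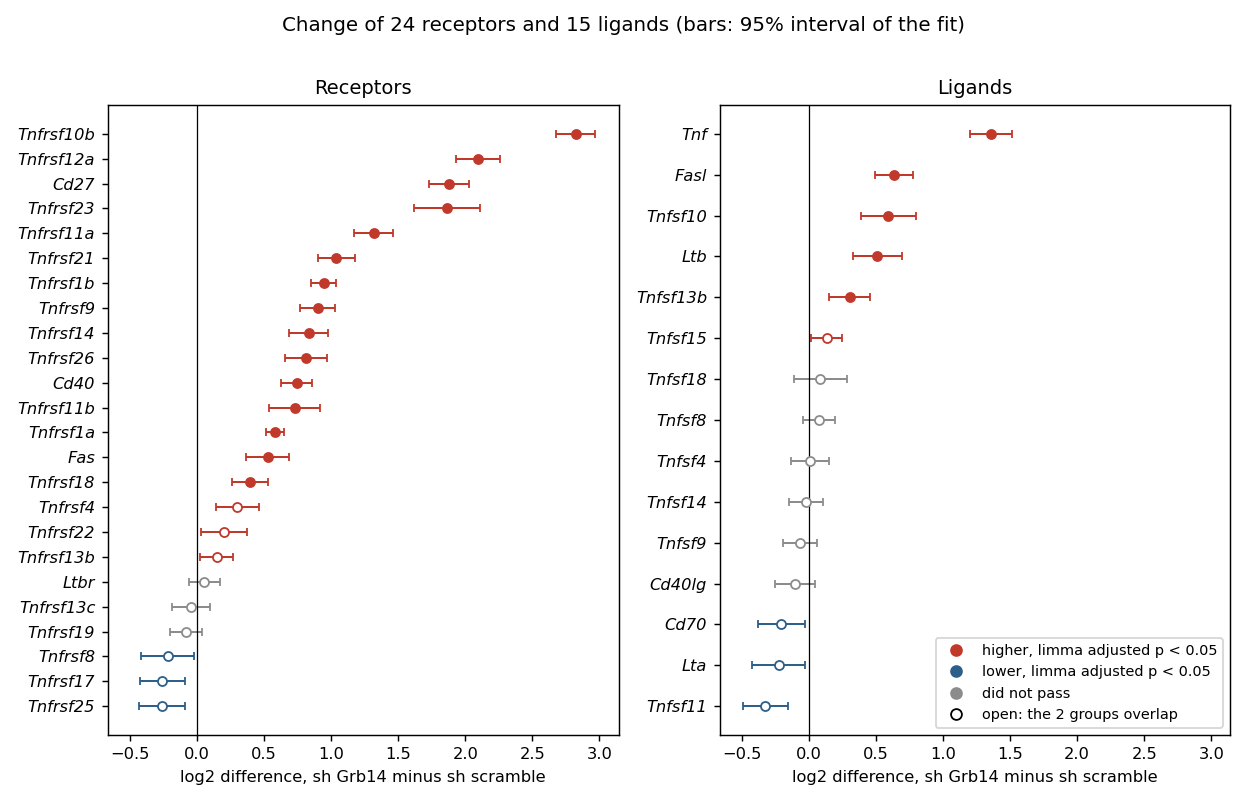
The log2 difference, sh Grb14 minus sh scramble, of each of the 24 receptors (left) and 15 ligands (right), with bars for the 95% confidence interval of the limma fit. Red points rose, blue points fell, grey points did not pass, and open points mark genes whose 2 groups overlap; the receptors reach 2.82, whereas Tnf at 1.36 stands alone among the ligands above a change of 1.

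The receptors with a death domain, 5 in number, gave 4 rises (80%, against 25.8% of all genes) and 1 fall (20%, against 39.5%). Tnfrsf10b, the mouse TRAIL receptor that starts cell death, showed the largest change of the family. It had a lowest, median and highest level of 9.62, 9.89 and 10.10 in sh Grb14 livers, against 6.95, 7.04 and 7.17 in sh scramble livers. Every sh Grb14 liver was far above every sh scramble liver. The change was 2.82 (SE 0.070, 95% interval 2.67 to 2.97), a 7.07-fold higher level (limma adjusted p = 9.09e-15; two-sided exact permutation p = 0.00216, the smallest that 924 assignments of 12 mice allow). That smallest exact p also applies to each of the 20 genes whose groups did not overlap.

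Tnfsf10, the gene of the ligand TRAIL, rose much less than this receptor. Levels were 8.89, 9.28 and 9.56 (lowest, median, highest) in sh Grb14 livers, against 8.55, 8.62 and 8.76 in sh scramble livers. The groups did not overlap, but the lowest sh Grb14 liver lay only a little above the highest sh scramble liver, and the sh Grb14 livers were the more widely spread. The change was 0.59 (SE 0.097), or 1.51-fold (limma adjusted p = 5.33e-05). Tnfrsf23 and Tnfrsf22, mouse TRAIL receptors that lack a death domain and act as decoys, stand next to each other on chromosome 7. For Tnfrsf23 the lowest, median and highest levels were 8.76, 9.13 and 9.30 in sh Grb14 livers, against 6.82, 7.33 and 7.52 in sh scramble livers. Both groups were widely spread for this gene, and they were well apart. The change of Tnfrsf23 was 1.86 (SE 0.12), or 3.64-fold (limma adjusted p = 3.76e-10), and that of Tnfrsf22 was 0.20 (SE 0.082, limma adjusted p = 0.0398), with overlapping groups. The rise of Tnfrsf22 was not past the test with arrays centred (0.06), with quantile normalisation (0.05), or without any 1 of sh Grb14 mice 3, 4, 5 and 6 and sh scramble mice 1, 2 and 5 (limma adjusted p from 0.0527 to 0.673 over these 9 fits). Tnfrsf11b, the secreted decoy osteoprotegerin, which binds RANK ligand and TRAIL, rose by 0.73 (SE 0.090, limma adjusted p = 2.08e-06).

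Fas, the receptor through which Fas ligand kills hepatocytes, rose by 0.53 (SE 0.076, limma adjusted p = 1.3e-05), and Fasl, its ligand on T and NK cells, by 0.63 (SE 0.067, limma adjusted p = 3.3e-07). In sh scramble livers Fasl was under the low-signal reference, 6.69 in that group, and in sh Grb14 livers it was above the reference, 6.50 in that group. Tnfrsf21, or death receptor 6, had levels of 10.21, 10.43 and 10.62 in sh Grb14 livers, against 9.26, 9.38 and 9.46 in sh scramble livers (lowest, median, highest). All sh Grb14 livers were higher, with a change of 1.04 (SE 0.064), or 2.06-fold (limma adjusted p = 3.27e-10). Without sh Grb14 mouse 4, or with arrays centred, the change of Tnfrsf21 was 0.997 or 0.89, under 2-fold. The death-domain receptor that fell was Tnfrsf25, death receptor 3 of T cells, with a change of −0.26 (limma adjusted p = 0.011). Its mean level over the 12 arrays was under the low-signal reference.

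**Figure D2:**
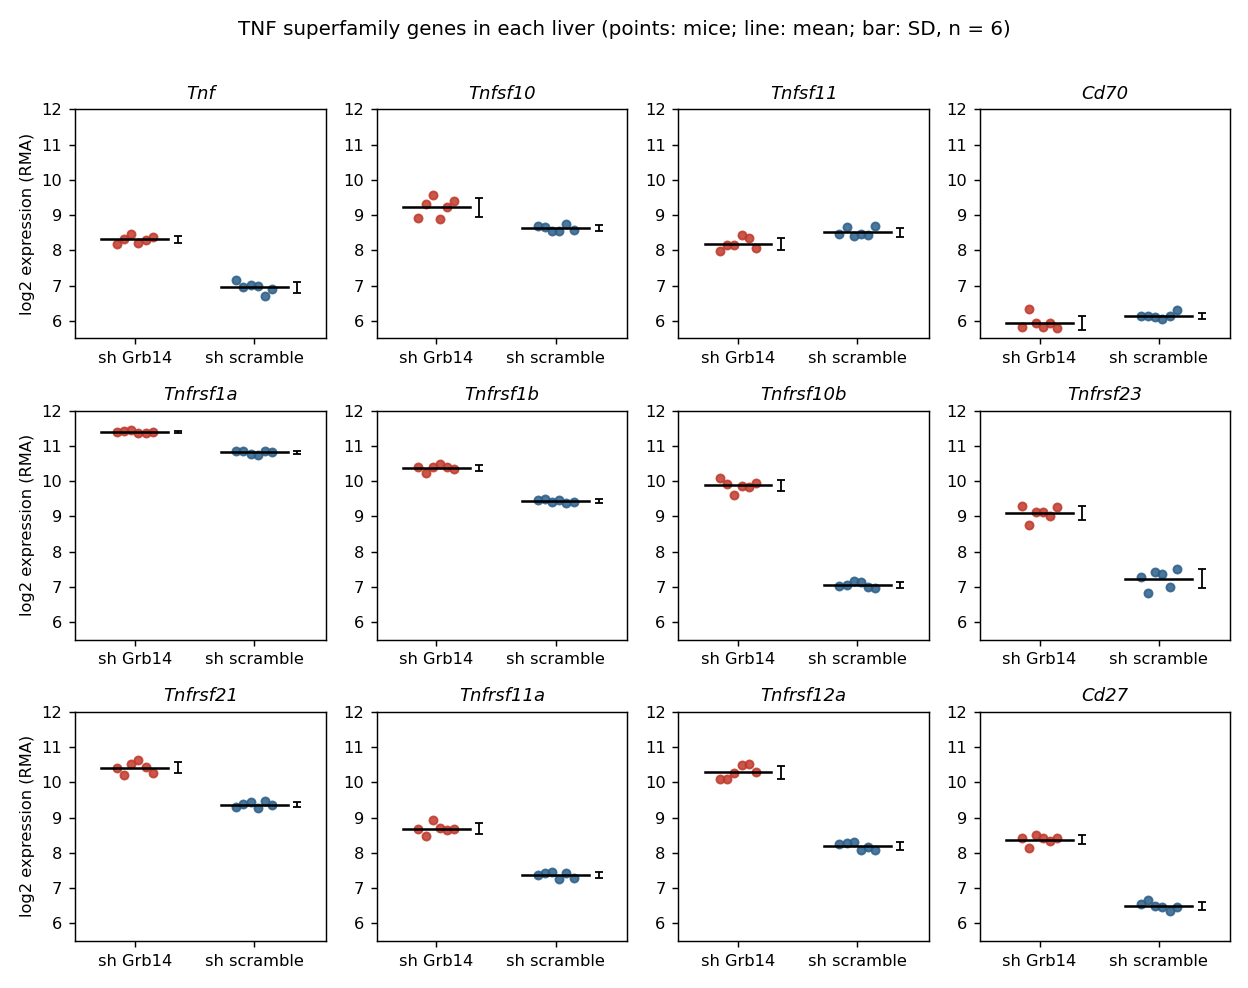
Log2 RMA levels of 12 family genes in each liver, sh Grb14 left of sh scramble in every panel, all panels on 1 scale. Each point is a mouse, the line is the group mean and the bar its SD (n = 6); the groups are apart for every gene shown but Tnfsf11 and Cd70, and the gap is widest for Tnfrsf10b, with medians of 9.89 in sh Grb14 livers and 7.04 in sh scramble livers.

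Tnf and both of its receptors were higher in sh Grb14 livers, and the other genes of the lymphotoxin branch gave small or mixed changes. Tnf, the inflammatory cytokine made chiefly by macrophages, had levels of 8.18, 8.31 and 8.46 in sh Grb14 livers, against 6.69, 6.97 and 7.17 in sh scramble livers (lowest, median, highest). The sh Grb14 livers were close together and all above the sh scramble livers. The change was 1.36 (SE 0.074, 95% interval 1.20 to 1.51), or 2.56-fold (limma adjusted p = 6.82e-11), the largest among the 15 ligands. Tnfrsf1b, TNF receptor 2, which lacks a death domain, had levels of 10.24, 10.40 and 10.49 in sh Grb14 livers, against 9.38, 9.44 and 9.50 in sh scramble livers, with no overlap. It changed by 0.94 (SE 0.044), or 1.92-fold (limma adjusted p = 1.13e-11). Tnfrsf1a, the death-domain TNF receptor found on most cells, had 11.36, 11.40 and 11.45 in sh Grb14 livers, against 10.75, 10.84 and 10.85 in sh scramble livers. These were the tightest groups among the genes given in full, and the change of 0.58 (SE 0.033), or 1.5-fold, passed the test (limma adjusted p = 9.83e-11).

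Lta, the secreted lymphotoxin that binds the same receptors as TNF, changed by −0.22 (SE 0.093, limma adjusted p = 0.0453; two-sided exact permutation p = 0.0606), with overlapping groups. It did not pass without any 1 of sh Grb14 mice 1, 3 and 6 and sh scramble mice 1, 2, 5 and 6 (limma adjusted p from 0.0626 to 0.112). Ltb, the membrane-bound partner of lymphotoxin alpha, rose by 0.51 (SE 0.085, limma adjusted p = 6.3e-05) with no overlap. Ltbr, their common receptor on stromal cells and hepatocytes, had a change of 0.06 (95% interval −0.06 to 0.17) that did not pass (limma adjusted p = 0.369), and its direction was the opposite with arrays centred or quantile normalised. Tnfrsf14, or HVEM, a receptor on leukocytes and epithelia, rose by 0.83 (SE 0.069, limma adjusted p = 1.55e-08). Its ligand Tnfsf14, or LIGHT, under the low-signal reference in both groups, had a change of −0.02 (limma adjusted p = 0.782). With arrays centred the change of Tnfsf14 was −0.17 (limma adjusted p = 0.0173). Of 8 markers of recruited macrophages, 8 rose (100%, against 25.8% of all genes), with a median change of 1.98. Their summed linear signal was 9487 to 12614 in sh Grb14 livers, against 3057 to 3930 in sh scramble livers. Of 8 Kupffer cell markers, 4 rose (50%, against 25.8% of all genes) and 0 fell, with a median change of 0.23. Summed signals were 16659 to 20109 in sh Grb14 livers, against 6758 to 9083 in sh scramble livers. C1qb and Cd5l, with means of 12.82 and 12.66 in sh Grb14 livers, weigh most in these sums. Named after their values were seen, Cd5l, C1qb and C1qa rose by 1.79, 1.36 and 1.47, whereas Clec4f, Timd4, Vsig4 and Marco did not pass. No marker of these lists was under the low-signal reference in both groups. Their part in the changes of Tnf and its receptors was not tested.

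Ltb, Tnf and Lta lie side by side on mouse chromosome 17 yet changed by 0.51, 1.36 and −0.22, so the 250 bases before the start of each are shown, as given by RefSeq on GRCm38.p6, 5′ to 3′ on the strand of the gene. Capitals mark a match, on either strand, to the NF-kB consensus GGGRNNYYCC, to TGANTCA, the AP-1 site, or to TATAAA. In these, R stands for A or G, Y for C or T, and N for any base. Sites that differ from a pattern by any base, or lie outside the 250 bases, are not marked. A window without a match can therefore still belong to a gene with such sites. The windows are chr17:35194257-35194506 on the plus strand for Ltb, and chr17:35202008-35202257 and chr17:35205352-35205601 on the minus strand for Tnf and Lta.
Ltb: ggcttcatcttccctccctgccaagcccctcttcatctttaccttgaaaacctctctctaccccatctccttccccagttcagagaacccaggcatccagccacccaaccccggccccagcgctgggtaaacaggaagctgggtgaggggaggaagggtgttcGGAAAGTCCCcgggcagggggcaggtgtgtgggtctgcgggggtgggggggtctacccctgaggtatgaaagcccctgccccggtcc
Tnf: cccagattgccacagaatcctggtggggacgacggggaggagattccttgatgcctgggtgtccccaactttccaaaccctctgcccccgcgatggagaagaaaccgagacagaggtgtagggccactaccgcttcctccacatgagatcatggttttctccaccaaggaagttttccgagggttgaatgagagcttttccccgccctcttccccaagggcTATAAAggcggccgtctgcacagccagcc
Lta: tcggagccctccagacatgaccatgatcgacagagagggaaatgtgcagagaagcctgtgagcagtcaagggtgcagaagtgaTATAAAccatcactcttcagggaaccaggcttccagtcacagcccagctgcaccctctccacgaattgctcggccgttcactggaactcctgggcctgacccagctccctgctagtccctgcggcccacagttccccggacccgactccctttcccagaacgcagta
Counted to the first base of a match, the Ltb window held an NF-kB match on the opposite strand 87 bases before the start, the Tnf window held TATAAA 29 bases before it, and the Lta window held TATAAA 167 bases before it. Over all 32851 windows of this length, 7.251% held the NF-kB consensus, 6.749% TGANTCA and 12.37% TATAAA. Of the 39 genes, 30 had a window, 34 windows in all, and the NF-kB consensus was in those of 4 genes, Ltb, Tnfrsf25, Tnfrsf8 and Tnfrsf9. These 4 changed by 0.51, −0.26, −0.22 and 0.90. TGANTCA was in windows of 5 genes, Fas, Tnfrsf8, Tnfrsf9, Tnfsf13b and Tnfsf14, and TATAAA in windows of 6, Lta, Tnf, Tnfrsf17, Tnfrsf23, Tnfsf11 and Tnfsf18. Genes with a match therefore include some that rose, some that fell and some that did not pass.

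Tnfrsf12a and Tnfrsf9, which both rose, are shown from chr17:23677450-23677699 on the minus strand and chr4:150927749-150927998 on the plus strand, the second because its window held both the NF-kB consensus and TGANTCA.
Tnfrsf12a: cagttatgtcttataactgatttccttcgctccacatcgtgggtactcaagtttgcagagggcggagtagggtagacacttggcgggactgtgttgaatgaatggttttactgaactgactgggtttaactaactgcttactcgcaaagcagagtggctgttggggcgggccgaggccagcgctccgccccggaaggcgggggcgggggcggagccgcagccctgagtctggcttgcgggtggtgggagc
Tnfrsf9: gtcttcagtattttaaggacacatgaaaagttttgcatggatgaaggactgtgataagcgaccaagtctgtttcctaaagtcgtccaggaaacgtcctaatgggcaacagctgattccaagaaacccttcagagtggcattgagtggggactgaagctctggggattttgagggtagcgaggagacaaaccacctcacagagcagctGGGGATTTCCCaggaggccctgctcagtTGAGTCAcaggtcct
The Tnfrsf9 window had overlapping NF-kB matches 43 and 42 bases before the start and TGANTCA 15 bases before it, and another window of that gene held none of the motifs. The Tnfrsf12a window held none of them. A match is a description of letters, and binding was not measured.

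Tnfrsf12a, the receptor of TWEAK known for growth of liver progenitor cells and for fibrosis, was 4.27-fold higher in sh Grb14 livers. The lowest, median and highest levels were 10.08, 10.28 and 10.51 in sh Grb14 livers, against 8.07, 8.21 and 8.32 in sh scramble livers. No sh Grb14 liver came near the sh scramble range, and the change was 2.10 (SE 0.076, 95% interval 1.93 to 2.26; limma adjusted p = 5.5e-13). TWEAK is the product of Tnfsf12. The probe set that Tnfsf12 shares with Tnfsf13 had levels of 8.37, 8.47 and 8.58 in sh Grb14 livers, against 8.22, 8.26 and 8.45 in sh scramble livers, a difference of 0.17 with overlapping groups (two-sided exact permutation p = 0.0108), and the genes behind it cannot be told apart. Of 5 cholangiocyte markers measured, 1 rose (20%, against 25.8% of all genes) and 0 fell, with a median change of 0.04. Their summed signal was 1087 to 1193 in sh Grb14 livers, against 978 to 1107 in sh scramble livers. Cftr was under the low-signal reference in both groups. Of 8 stellate cell markers, 5 rose and 2 fell (62.5% and 25%, against 25.8% and 39.5% of all genes), with a median change of 0.82. None was under the reference in both groups. Summed signals were 11766 to 15286 in sh Grb14 livers, against 10133 to 11389 in sh scramble livers. Dcn, with a mean of 12.60 in both groups, weighs most in these sums. Named after their values were seen, Acta2, Col1a1 and Col3a1 rose by 2.46, 1.76 and 1.25, whereas Lrat and Reln changed by −0.33 and −0.35. The rise of Des came with overlapping groups (two-sided exact permutation p = 0.0541). The part of these cells in the Tnfrsf12a change was not tested.

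The RANK genes moved in opposite directions. Tnfrsf11a, the receptor RANK of osteoclast precursors and myeloid cells, had levels of 8.48, 8.68 and 8.95 in sh Grb14 livers, against 7.26, 7.39 and 7.45 in sh scramble livers (lowest, median, highest). The groups were well apart, and the change was 1.32 (SE 0.068), or 2.49-fold (limma adjusted p = 3.8e-11). Tnfsf11, the gene of RANK ligand, had 7.97, 8.15 and 8.44 in sh Grb14 livers, against 8.40, 8.46 and 8.68 in sh scramble livers. The highest sh Grb14 liver reached into the sh scramble range. The change was −0.32 (SE 0.079, 95% interval −0.49 to −0.16; limma adjusted p = 0.0019; two-sided exact permutation p = 0.00649), a level 1.25-fold lower. Tnfrsf19, or TROY, a receptor of epithelial and neural progenitors, did not pass, with a change of −0.08 (limma adjusted p = 0.217), but it fell past the test with arrays centred (−0.23, limma adjusted p = 0.00158) and with quantile normalisation (−0.25, limma adjusted p = 0.000812).

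Receptors that give T cells a second signal were mostly higher, 4 of 5 (80%, against 25.8% of all genes) with 1 lower. Of their 5 ligands, all under the low-signal reference in both groups, 0 rose and 1 fell (20%, against 39.5% of all genes). Among the low-signal reference genes, 0.335% rose and 32.2% fell, so these ligand counts are no contrast to the receptors. Cd27, a receptor of T cells, NK cells and memory B cells, was among the receptors that rose. Its levels were 8.12, 8.42 and 8.51 in sh Grb14 livers, against 6.34, 6.48 and 6.66 in sh scramble livers, where it lay under the low-signal reference of 6.69. No liver of one group overlapped with the other, and the change was 1.88 (SE 0.070, limma adjusted p = 7.14e-13). With so weak a signal in sh scramble livers the size of this change is uncertain, and no fold is given. Cd70, the ligand of CD27 on activated lymphocytes and dendritic cells, was under the low-signal reference in both groups, with 5.78, 5.88 and 6.32 in sh Grb14 livers, against 6.04, 6.13 and 6.30 in sh scramble livers. The groups overlapped, since sh Grb14 mouse 2 had the highest level of all. The change was −0.20 (SE 0.083, limma adjusted p = 0.0402; two-sided exact permutation p = 0.0498), and it did not pass with quantile normalisation (−0.12) or without any 1 of sh Grb14 mice 1, 3, 4, 5 and 6 and sh scramble mice 1, 2, 5 and 6 (limma adjusted p from 0.0546 to 0.235).

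Among the other receptors of this kind, Tnfrsf9, or CD137, of activated T and NK cells, rose by 0.90 (SE 0.061, limma adjusted p = 1.24e-09). Tnfrsf18, or GITR, a receptor of regulatory T cells, rose by 0.40 (SE 0.063, limma adjusted p = 3.91e-05), and its chromosome neighbour Tnfrsf4, or OX40, by 0.30 (SE 0.075, limma adjusted p = 0.00254) with overlapping groups. With arrays centred, the change of Tnfrsf4 was 0.15 and did not pass (limma adjusted p = 0.0514), and that of Tnfrsf18 was 0.25. Tnfrsf8, or CD30, of activated lymphocytes, changed by −0.22 (limma adjusted p = 0.0497; two-sided exact permutation p = 0.0606), under the low-signal reference. This call was lost under 9 alternatives (limma adjusted p from 0.0504 to 0.123): quantile normalisation, each probe set on its own, and the omission of sh Grb14 mouse 1, 2, 3 or 6 or sh scramble mouse 1, 2 or 6. Their ligands Tnfsf18, Tnfsf8, Tnfsf4 and Tnfsf9, made mostly by antigen-presenting cells, had changes of 0.08, 0.07, 0.01 and −0.07 and did not pass (limma adjusted p between 0.257 and 0.925), all under the low-signal reference. Of these, Tnfsf9 passed with arrays centred (−0.21) and Tnfsf8 with quantile normalisation (0.18). All 7 measured T cell markers rose (100%, against 25.8% of all genes), with a median change of 0.97. Their summed signal was 2701 to 3572 in sh Grb14 livers, against 958 to 1143 in sh scramble livers. Of 8 markers of NK and cytotoxic cells, 6 rose (75%, against 25.8% of all genes) and 0 fell, with a median change of 1.27. Summed signals were 3205 to 4157 in sh Grb14 livers, against 657 to 732 in sh scramble livers. However, the NK receptor genes Ncr1 and Klrb1c were under the low-signal reference in both groups. The part of these cells in the receptor changes was not tested.

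Genes that act on B cells gave smaller and mixed changes. Cd40, the receptor of B cells, macrophages and endothelium, rose by 0.74 (SE 0.055, limma adjusted p = 3.52e-09). Its ligand Cd40lg, under the low-signal reference in both groups, had a change of −0.10 that did not pass (limma adjusted p = 0.198). With arrays centred the change of Cd40lg was −0.25 (limma adjusted p = 0.00443). Tnfsf13b, or BAFF, a B cell survival factor of myeloid cells, rose by 0.31 (SE 0.072, limma adjusted p = 0.00151), but with arrays centred its change was 0.16 (limma adjusted p = 0.0515). Of its receptors, Tnfrsf13b, or TACI, rose by 0.15 (SE 0.058, limma adjusted p = 0.0347), Tnfrsf13c, the BAFF receptor proper, had a change of −0.05 (limma adjusted p = 0.566), and Tnfrsf17, the plasma cell receptor BCMA, fell by 0.26 (limma adjusted p = 0.0109) under the low-signal reference. The call for Tnfrsf13b was lost with arrays centred (0.00097, limma adjusted p = 0.987), with quantile normalisation (0.08, limma adjusted p = 0.134), and without any 1 of sh Grb14 mice 3, 4, 5 and 6 and sh scramble mice 3, 4 and 5. Tnfrsf13c fell past the test with arrays centred (−0.19, limma adjusted p = 0.0127) and with quantile normalisation (−0.22, limma adjusted p = 0.011). Of 6 B cell markers measured, 3 rose (50%, against 25.8% of all genes) and 0 fell, with a median change of 0.20. Their summed signal was 642 to 785 in sh Grb14 livers, against 550 to 701 in sh scramble livers. Ms4a1 and Fcrla were under the low-signal reference in both groups. The part of B cells in these changes was not tested.

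Tnfsf15, or TL1A, the endothelial ligand of death receptor 3, had a change of 0.13 (SE 0.055, limma adjusted p = 0.0463) with overlapping groups. Its mean was 6.58 in sh scramble livers, under the low-signal reference of 6.69 in that group. In sh Grb14 livers its mean was 6.71, above the lower reference of 6.50 in that group. The sh scramble mean is also above 6.50, so this crossing depends on the reference being set for each group. Centring the arrays turned the change of Tnfsf15 to −0.02, and it did not pass without any 1 of sh Grb14 mice 1, 2, 3, 5 and 6 and sh scramble mice 1, 2 and 3 (limma adjusted p from 0.0595 to 0.107). Tnfrsf26, a mouse receptor next to Tnfrsf22 with no role assigned here, rose by 0.81 (SE 0.074, limma adjusted p = 4.95e-08). Judged by the mean of all 12 arrays, 11 of the 39 genes were at or under the low-signal reference, among them 7 of the 9 ligands that did not rise, so changes of these genes rest on weak signal. Of these 11, Fasl rose, Cd70, Tnfrsf8, Tnfrsf17 and Tnfrsf25 fell, and 6 were not past the test. The median change of the 11 was −0.07. Among the 1194 olfactory and vomeronasal receptor genes that set the reference, 385 (32.2%) also fell and 4 rose, with a median change of −0.11.

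Set side by side as ligand and receptor, 27 known pairs were listed and 24 had both genes measured. In 8 pairs both genes rose, and these were Tnf with its 2 receptors, Fasl with Fas, Tnfsf10 with its 4 receptors, and Tnfsf13b with Tnfrsf13b. Among them, the calls of the receptors Tnfrsf22 and Tnfrsf13b are not stable, and that of Tnfsf13b was lost with arrays centred. In 5 pairs the ligand fell and the receptor rose, as in Tnfsf11 with Tnfrsf11a. Of these 5 pairs, 3 hold Lta or Cd70, whose calls are not stable. In another 5 the receptor rose with a ligand that did not pass, as in Cd40lg with Cd40. The ligands of those last 5 pairs all lay under the low-signal reference in both groups, so a change in them could be missed. The receptor had the larger signed change in 14 of the 24 pairs. Pairs that share a gene are not independent, and no test was made over them.

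**Figure D3:**
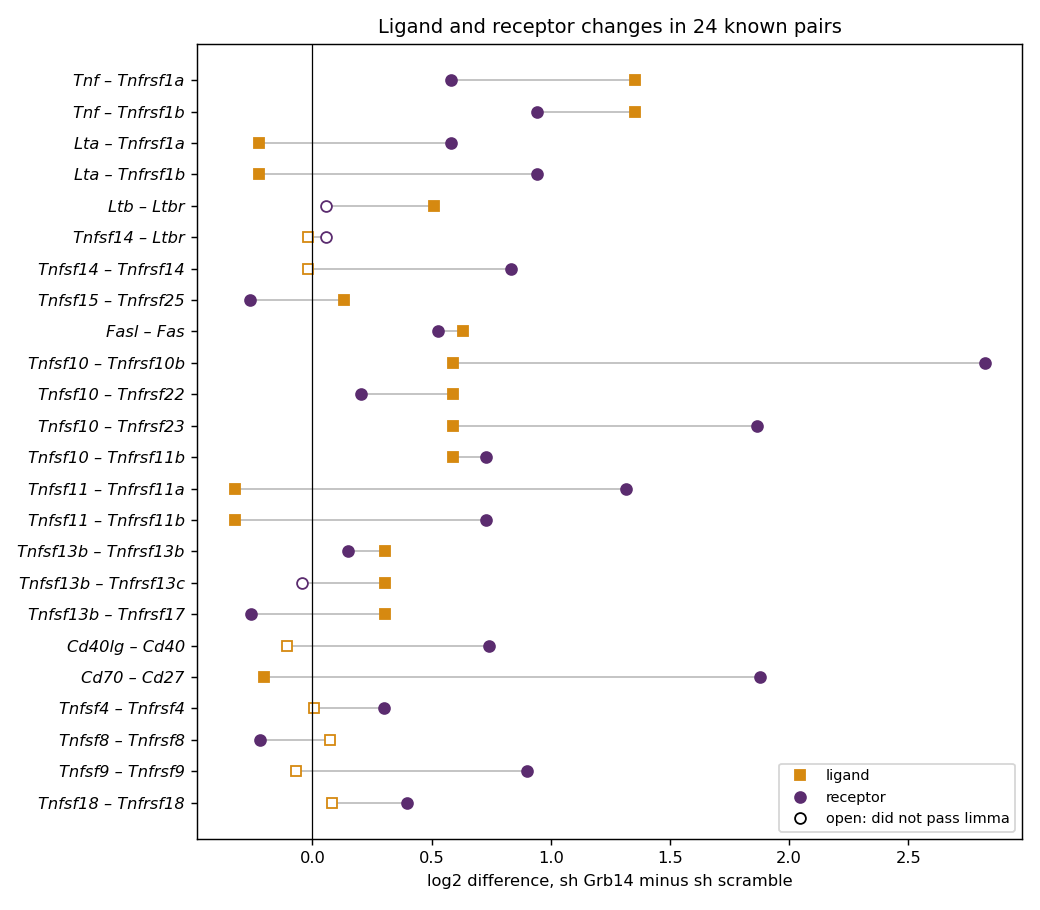
Log2 differences, sh Grb14 minus sh scramble, of the ligand (square) and receptor (circle) in each of 24 known pairs, joined by a line, with open symbols for genes that did not pass the limma test. The longest line joins Tnfsf10 at 0.59 to Tnfrsf10b at 2.82, and the ligands Lta, Tnfsf11 and Cd70 lie left of 0 with receptors right of it.

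Of the 39 genes, 21 stand in a chromosome group with another family gene, separated by at most 2 coding genes on GRCm38.p6, in 13 neighbouring pairs. Neighbours often differed. Beside Tnf and Lta, Cd27 changed by 1.88, Ltbr by 0.06 and Tnfrsf1a by 0.58 on chromosome 6, with Tuba3a and Scnn1a between them. Tnfrsf1b rose by 0.94 next to Tnfrsf8 at −0.22 on chromosome 4, and Fasl rose by 0.63 near Tnfsf4 and Tnfsf18 on chromosome 1, which did not pass. The receptors Tnfrsf26, Tnfrsf22 and Tnfrsf23 on chromosome 7 are closely related copies with changes of 0.81, 0.20 and 1.86, and their probes may share signal, so the value of each is uncertain.

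**Figure D4:**
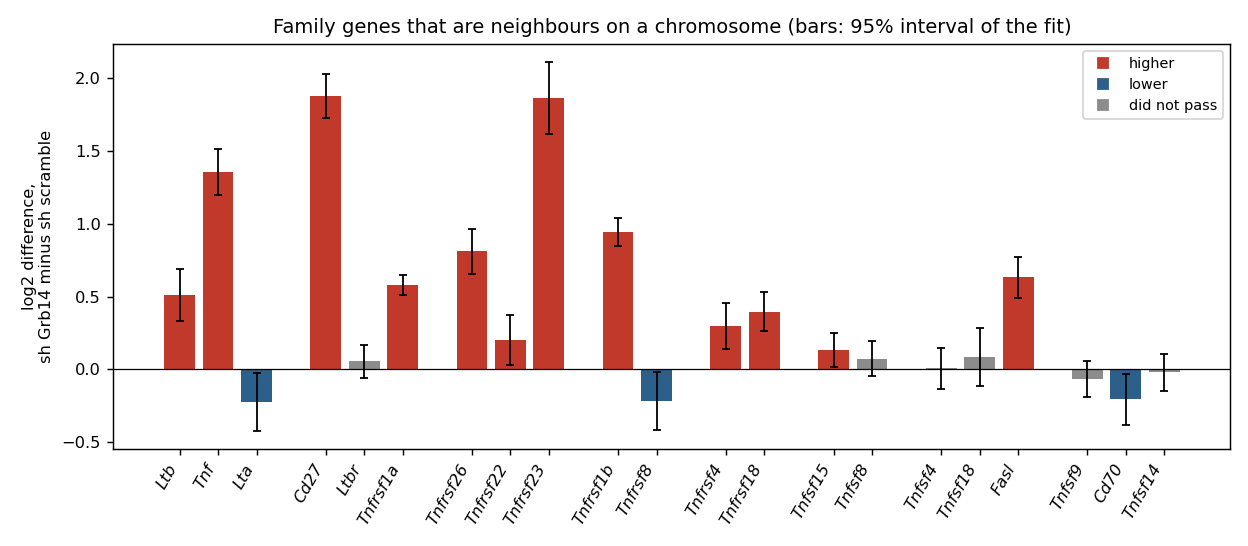
Log2 difference, sh Grb14 minus sh scramble, of the 21 family genes that lie near another family gene, grouped by chromosome neighbourhood, with bars from 0 and 95% confidence intervals of the limma fit. Within groups the bars differ in size and sign, as for Tnf at 1.36 beside Lta at −0.22.

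Genes that pass on or restrain the signals of these receptors were also followed, 40 of 45 listed being measured. Of these, 27 rose (67.5%, against 25.8% of all genes) and 7 fell (17.5%, against 39.5% of all genes), the other 6 not passing the test. Their median change was 0.30, and with arrays centred 19 rose and 11 fell. The list was drawn up with earlier results of these data known, so its shares are descriptive and no test was made over them. Traf3, Ripk1, Optn, Chuk and Nfkb1 had no probe set of their own. Among 5 family genes outside the naming rule, 3 rose: Eda2r, the receptor of an ectodysplasin form, by 2.31 (SE 0.081, limma adjusted p = 3.6e-13) over a mean in sh scramble livers under the low-signal reference, Relt by 0.63 and Eda, the ectodysplasin ligand, by 0.51. All 9 ubiquitin ligases and deubiquitinases of the receptor complex passed, 8 higher and 1 lower. Tnfaip3, or A20, which shuts off NF-kB signalling, rose by 1.47 (SE 0.082, limma adjusted p = 9.27e-11), its partner Tnip1 rose by 0.68 (limma adjusted p = 4.81e-08), and Otulin, which removes linear ubiquitin, changed by −0.49 (limma adjusted p = 5.93e-08).

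Of 12 kinases and NF-kB subunits measured, 9 rose and 2 fell. Nfkb2, a subunit of the pathway that lymphotoxin and BAFF receptors use, rose by 0.86 (limma adjusted p = 3.72e-11), the subunit gene Rel by 0.71 (limma adjusted p = 4.2e-10), and the inhibitor gene Nfkbia by 0.62 (limma adjusted p = 7.08e-06). Of the 9 adaptors and TRAF genes measured, 3 rose and 3 fell (33.3% each), shares near those of all genes, 25.8% and 39.5%. Casp8, the caspase that death receptors recruit, rose by 0.51 (limma adjusted p = 2.89e-08), whereas Cflar, which blocks that caspase, changed by −0.59 (limma adjusted p = 1.36e-06). Traf1, an adaptor of TNF receptor 2, rose by 0.57 (limma adjusted p = 9.49e-07), with mean levels under the low-signal reference in both groups. Of 5 genes for the release of ligands and receptors, 4 rose and 1 fell. Rhbdf2, which brings the TNF-releasing protease to the surface, rose by 1.30 (SE 0.058, limma adjusted p = 5.82e-12), Adam17, that protease, by 0.82 (limma adjusted p = 6e-10), and Adam10, a related one, by 1.04 (limma adjusted p = 7.8e-11).

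**Figure D5:**
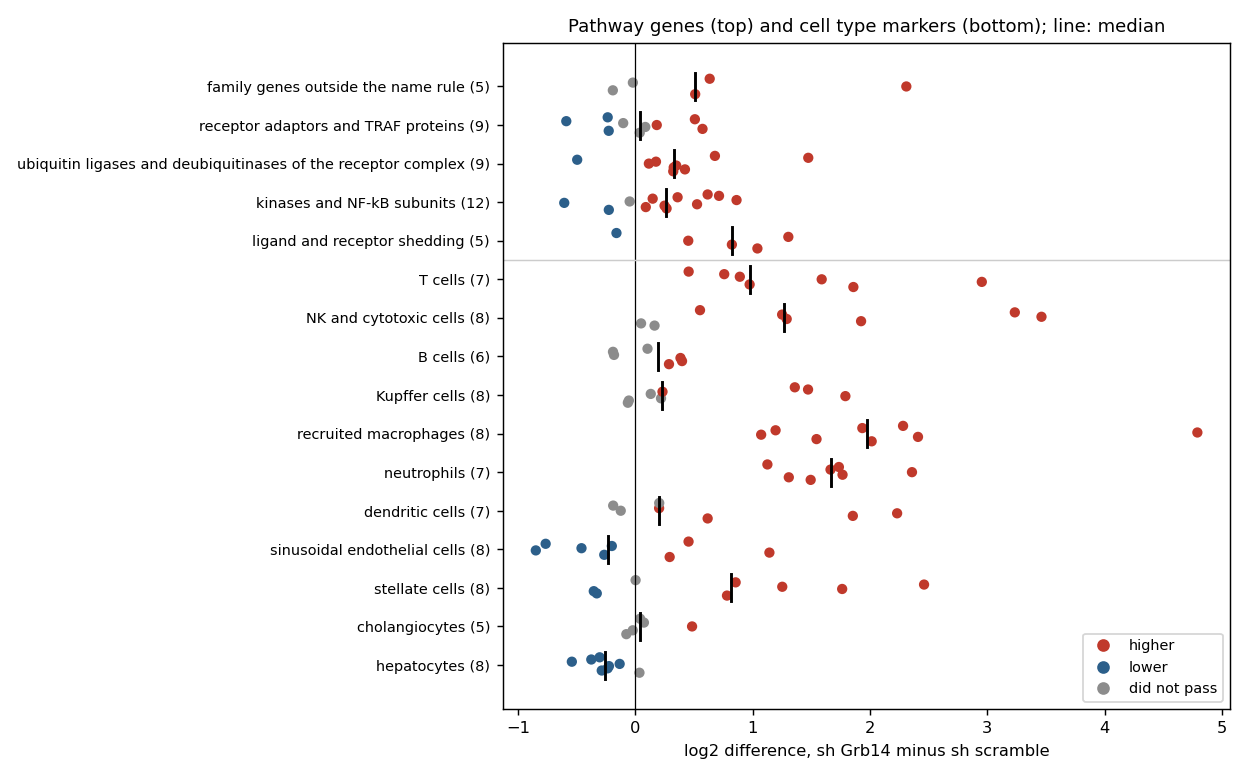
Log2 differences, sh Grb14 minus sh scramble, of single genes (points) in 5 pathway lists and 11 cell type marker lists, with the number measured in brackets and the median as a black line. Red points rose, blue fell and grey did not pass; recruited macrophage and neutrophil markers lie wholly right of 0, with medians of 1.98 and 1.66, and hepatocyte markers have a median of −0.26.

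Over the 7 family genes with at least a 2-fold rise, the mean level was 9.13 in sh Grb14 mouse 2 and between 9.30 and 9.35 in the other 5 sh Grb14 mice. The sh Grb14 mouse 2 was the lowest of its group in 4 of these 7 genes and had the highest Grb14 level of its group, 8.44. The next highest Grb14 level of that group, 8.29, was in mouse 6, whose mean over the 7 genes was 9.32. A relation between the Grb14 level and these genes was not tested. Neutrophil markers were higher in 7 of 7 (100%, against 25.8% of all genes), with a median change of 1.66. Their summed signals were 1314 to 1705 in sh Grb14 livers, against 491 to 565 in sh scramble livers. Dendritic cell markers were higher in 4 of 7 (57.1%, against 25.8% of all genes), with a median change of 0.20. Their summed signals were 1681 to 2075 in sh Grb14 livers, against 943 to 1061 in sh scramble livers. Named after their values were seen, Xcr1 and Clec9a rose by 1.85 and 2.23, whereas Zbtb46 and Cd209a had changes of −0.12 and −0.19 that did not pass. Of 8 sinusoidal endothelial markers, 3 rose and 5 fell (37.5% and 62.5%, against 25.8% and 39.5% of all genes), with a median change of −0.23. Their summed signals were 6918 to 7794 in sh Grb14 livers, against 8101 to 8931 in sh scramble livers. The part of these cells in the family's changes was not tested.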

How the data were processed

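Liver RNA of 12 mice was measured on Affymetrix whole-transcript arrays, from 100 ng total RNA per the labels' protocols. The authors deposited log2 values for 35556 probe sets, and the submitters' processing notes name RMA and Partek, whose roles they do not give here. Settings, batches and the genome build of the probes are not given in the sources used here. Array medians lay between 7.06 and 7.17 over all probe sets, but over the genes tested between 7.67 and 7.74 on sh Grb14 arrays and between 7.52 and 7.60 on sh scramble arrays. Probe sets with 1 gene symbol (21789) gave 19938 genes, and for the 999 genes with several the one with the highest mean over 12 arrays was used.

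All 12 arrays entered limma 3.58.1 (lmFit, eBayes with an intensity trend, no covariate), tested on simulated data. Single genes were also compared by two-sided exact permutation of the group labels. The low-signal reference was the 95th percentile of 1194 olfactory and vomeronasal receptor genes. Full values are given for genes with at least a 2-fold change past the test and for their ligands or receptors, and other genes by change and test. Of each pathway list, the 3 genes with the largest change past the test are named. Members, lists and pairs were chosen with earlier results of these data known. Alternatives were other scalings, filters, array weights, probe set rules, and leaving out each array. Motifs were searched on both strands of RefSeq windows. The number of arrays, 6 per group, limits the precision.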

Additional observations from a re-analysis of the deposited data

Results flagged for a closer look

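In 110 groups of 6 livers (the family genes, the pathway genes given by name and Grb14), 3 held a liver far from the others, where chance flags about 1 in 20 groups, or 5.5 of 110. For Cd70, sh Grb14 mouse 2 was the highest of its group at a log2 level of 6.32, with the nearest mouse at 5.93. For Nfkb2, sh scramble mouse 1 was the highest of its group at 8.43, with the nearest at 8.31. For Relt, sh scramble mouse 2 was the highest of its group at 7.20, with the nearest at 6.94.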

How the results depend on the processing

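Of the 39 family genes, 22 kept their call and direction under every alternative that tested them, 19 each but 18 for Tnfrsf17, and 17 changed under at least 1. The median change of all genes was −0.10 as deposited, −0.25 with arrays centred on their medians and −0.07 with quantile normalisation. With arrays centred, the count of genes higher was 3859 and that of genes lower 12943 (5144 and 7868 as deposited), and lower calls came to 11 family genes (against 6), 6 ligands (against 3), 5 receptors (against 3), 11 pathway genes (against 7) and 22 marker genes (against 14). Centring also turned the direction of Tnfsf15 (−0.015), Tnfsf18 (−0.063), Tnfsf8 (−0.074), Ltbr (−0.092) and Tnfsf4 (−0.14), quantile normalisation that of Ltbr (−0.040), Tnfsf14 (0.071) and Tnfsf9 (0.0062), and array weights that of Tnfsf4 (−0.025). Apart from the scaling itself, the cause was not tested. Leaving out 1 array at a time gave 24 to 29 family genes past the test (30 with all arrays), 3 to 6 lower family genes, 1 to 3 lower ligands and a Tnfsf4 change between −0.034 and 0.046. The count of 3 lower family genes came without sh Grb14 mouse 1, 3 or 6 or sh scramble mouse 1, 2 or 6, and the count of 1 lower ligand also without sh scramble mouse 5. A filter at the lower quartile of mean level left 32 family genes tested. No paired analysis was possible because mice carry no shared numbers between the groups. Near the low-signal reference, the arrays limit what can be read from small changes.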
